A study of Mus musculus with 8 samples.

Results

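The serotonin receptor genes were followed in poly(A) RNA of the lateral ganglionic eminence (LGE), from which striatal projection neurons arise, dissected at E18.5 from mouse embryos. The 10 genes Htr1a, Htr1b, Htr1d, Htr1f, Htr2a, Htr2c, Htr3a, Htr4, Htr6 and Htr7 were taken by symbol from the 15705 genes of the deposited table. All 10 were present, and all 10 passed the filter on low values. The 4 conditional knockout (cKO) libraries came from embryos of genotype Dlx1-Cre; Isl1 flx/flx and the 4 control libraries from embryos of genotype Isl1 flx/flx without the recombinase. Both groups thus carry the floxed alleles, only the cKO carries Cre, and its effect cannot be told apart from that of the Isl1 deletion, which is restricted to cells with a history of Dlx1-driven Cre. Isl1 encodes a transcription factor with LIM domains and a homeodomain that acts in neurons of the ventral forebrain. The labels give 1 dissection per embryo but neither litter nor sex, so the p-values measure the spread between these embryos only.

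Serotonin reaches the striatum in axons of the midbrain raphe nuclei and acts on G protein-coupled receptors and on 1 family of ligand-gated channels. The Htr1 receptors couple to Gi/o and lower cyclic AMP, the Htr2 receptors couple to Gq and phospholipase C, Htr3a forms a cation channel, and Htr4, Htr6 and Htr7 couple to Gs and raise cyclic AMP. In the striatum of adult rodents, Htr1b is known as a receptor of projection neurons that sits on their axon terminals, Htr6 as a receptor abundant in projection neurons, Htr2c as a receptor of projection neurons that the choroid plexus also makes in quantity, and Htr3a as a mark of interneurons from the caudal ganglionic eminence.

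The deposited read values are whole numbers that had been scaled alike in all libraries, as their nearly equal upper quartiles show, so depth is unknown and they are called adjusted read values here. They summed to between 23732455 and 24456923 per library. Isl1 itself held adjusted read values of 4930, 5377, 5618 and 5971 in the libraries labelled cKO, against 3777, 3692, 4186 and 3517 in those labelled control, and therefore did not check the genotype labels. The sources used here do not say which exons Cre removes. All directions below rest on those labels. The library cKO replicate 3 and the control replicates 2 and 4 held Xist values of 30711 or more, and the other 5 held 45 or less, so the sexes were not balanced. The control replicate 3 and cKO replicate 4 were low in 12 markers of pallial neurons, with mean log2 values of 4.866 in the cKO library and 4.141 in the control library, against 6.147 to 6.941 in the other 6. Of 12 microglial markers 11 rose, against 2.87% of all genes tested. The summed RPKM of the 12 lay between 83.8 and 105 in the cKO and between 53.6 and 61 in the controls. This list was chosen with earlier results of these data known. The part of these differences in the receptor values was not tested, except where values without a library are given.

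Only 1 receptor gene passed the test. Htr1b fell in the cKO to less than its level in any control, and the other 9 genes did not pass the test. Among all 15698 genes tested, 6.66% passed (limma, Benjamini-Hochberg adjusted p under 0.05), 3.78% with a lower and 2.87% with a higher value in the cKO, and 1 of 10 is close to that background. In the authors' deposited table, 6.54% of these genes and 1 of the 10 receptors, again Htr1b, had an adjusted p under 0.05. Of the other 9, the authors' unadjusted edgeR p was under 0.05 for Htr1a (0.00733, adjusted 0.0897), Htr2a (0.00852, adjusted 0.101) and Htr2c (0.0409, adjusted 0.308). The median log2 fold change of the 10 receptors was -0.036, against 0.0059 over all genes tested.

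**Figure D1:**
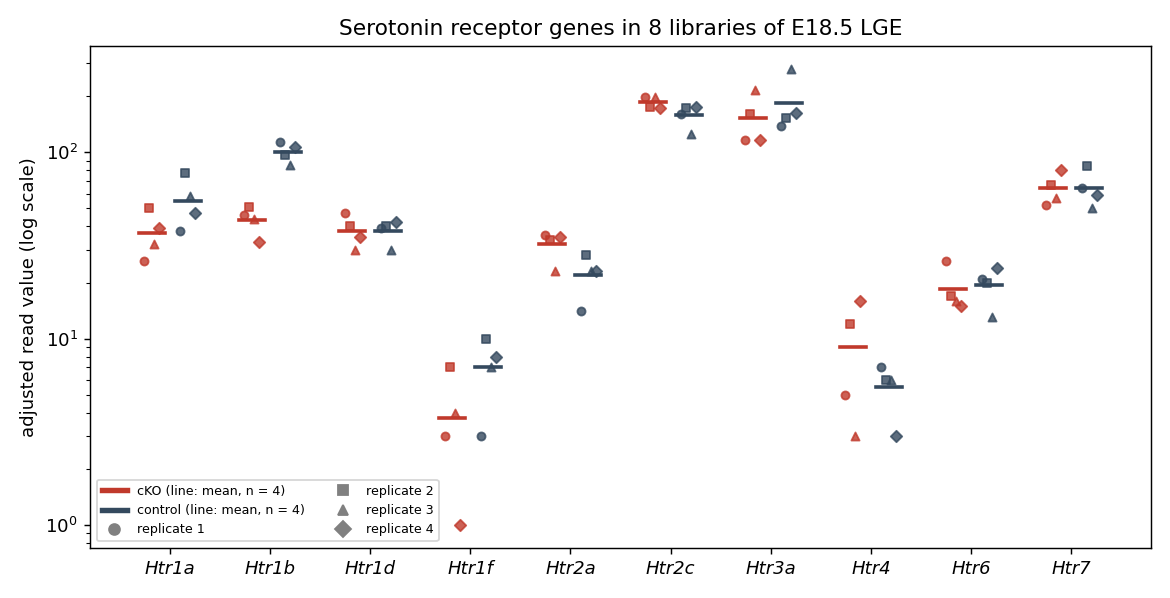
Adjusted read values (log scale) of the 10 serotonin receptor genes in the 4 cKO (red) and 4 control (dark blue) libraries, with a line at each group mean and a marker shape per replicate. For Htr1b all 4 cKO values lie below all 4 control values, while for each of the other 9 genes the groups overlap.

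The levels of the receptors were compared per length, as the RPKM the authors deposited, which divides the read value by gene length and library sum. That length covered 24.6% of the annotated exonic bases for Htr1b, 50.9% for Htr2c, 53% for Htr2a and 58.2% for Htr6. It covered 94.9% or more for the other receptors. The order of the genes, their shares and their sums may thus depend on the part counted, which was not tested. In the cKO, Htr3a was the most abundant at 3.02 ± 0.943 RPKM (SD, n = 4), followed by Htr2c at 1.61 ± 0.124 and Htr1b at 1.54 ± 0.276, and the ranges of Htr2c and Htr1b overlapped. In the controls, Htr3a averaged 3.65 ± 1.27 RPKM and Htr1b 3.61 ± 0.48, with overlapping ranges, and Htr2c followed at 1.38 ± 0.207, below every value of both. Htr1b thus stood in the third place of the cKO order and in the second place of the control order. Below these came Htr7, Htr6, Htr1a, Htr1d and Htr2a in both groups, with means between 0.341 and 0.762 RPKM in the cKO and between 0.306 and 0.77 RPKM in the controls. Within this set every neighbouring pair in the order overlapped, in both groups. Htr1f and Htr4 were the lowest, with means of 0.0617 and 0.0795 RPKM in the cKO and of 0.115 and 0.0489 RPKM in the controls, and their ranges overlapped. These are low levels for this tissue, since the median gene of the table averaged 7.85 RPKM in the controls.

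Summed over the 10 genes, the receptors reached 8.5, 9.52, 9.83 and 7.78 RPKM in the cKO libraries, against 11, 11.3, 12 and 11.5 RPKM in the control libraries. Htr1b made up 17.3 ± 2.19% of that sum in the cKO and 31.6 ± 5.23% in the controls (SD, n = 4 each). The share of Htr2c was 18.2 ± 1.82% in the cKO and 12.1 ± 2.1% in the controls, while its own level was 1.61 ± 0.124 RPKM in the cKO and 1.38 ± 0.207 in the controls. By coupling, the 4 Htr1 genes summed to 2.44 ± 0.389 RPKM in the cKO and 4.72 ± 0.446 in the controls. Htr1b alone made up 1.54 RPKM of that sum in the cKO and 3.61 in the controls, and no other Htr1 gene passed the test. The 2 Htr2 genes summed to 2.05 ± 0.113 RPKM in the cKO and 1.69 ± 0.225 in the controls, and the 3 Gs-coupled genes to 1.4 ± 0.147 RPKM in the cKO and 1.41 ± 0.262 in the controls.

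**Figure D2:**
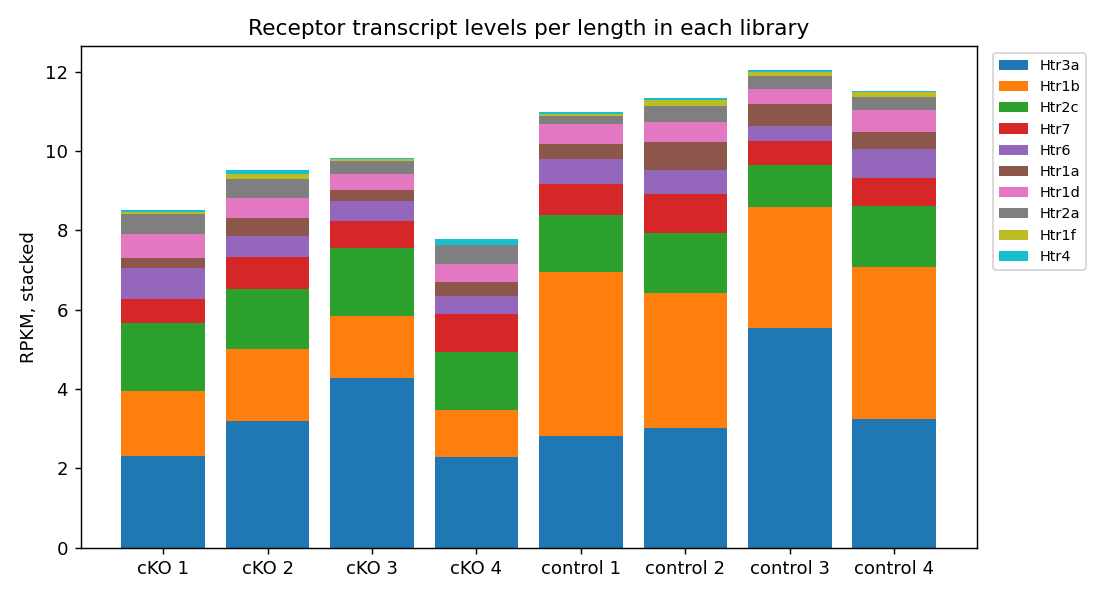
RPKM of the 10 receptor genes, stacked, in each of the 4 cKO and 4 control libraries. The stacks reach 7.78 to 9.83 RPKM in the cKO and 11 to 12 RPKM in the controls, and the orange Htr1b segment is between 1.16 and 1.81 RPKM high in the cKO and between 3.04 and 4.14 RPKM in the controls.

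Htr1b (ENSMUSG00000049511.5, chromosome 9, 81628291 to 81633828, minus strand, GRCm38) held adjusted read values of 46, 51, 44 and 33 in cKO replicates 1 to 4, against 114, 97, 86 and 107 in control replicates 1 to 4. The highest cKO value lay well below the lowest control value. The means were 43.5 ± 7.59 in the cKO and 101 ± 12.2 in the controls (SD, n = 4 each), so that the cKO held 43.1% of the control level. The log2 fold change was -1.21 ± 0.16 (SE), with a 95% interval from -1.55 to -0.86 and a limma adjusted p of 0.000565. Permuting the 8 values exactly, two-sided, gave a permutation p of 0.0286, which is the lowest this design allows. Groups that did not overlap were seen in 12.7% of all genes tested, and in 6.33% with the cKO lower. By size, the change of Htr1b was the 102nd among the 594 genes that fell. Without control replicate 3 and cKO replicate 4, the log2 fold change was -1.16 (adjusted p = 0.00183).

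**Figure D3:**
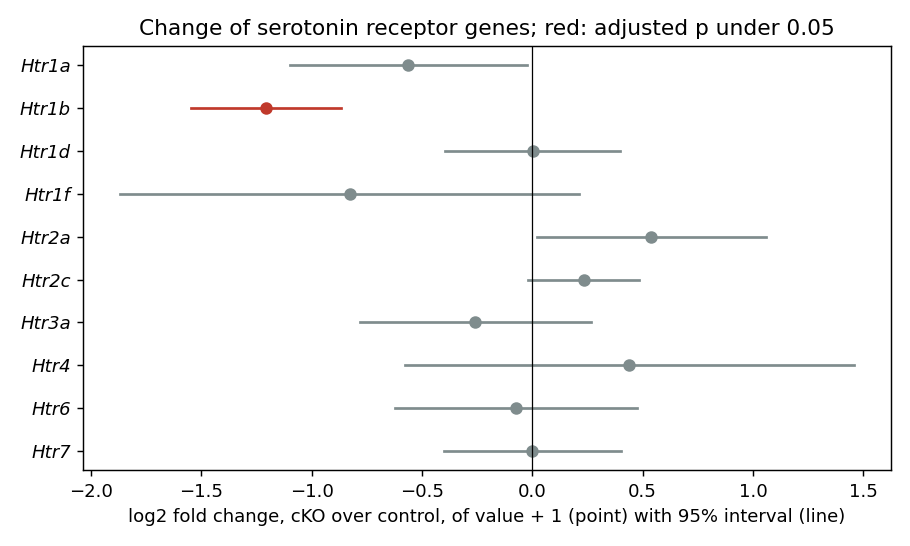
Log2 fold change of the adjusted read value plus 1, cKO over control, for each receptor gene (point) with its 95% interval from limma (line), and red where the adjusted p was under 0.05. The interval of Htr1b runs from -1.55 to -0.86, and the widest, of Htr1f and Htr4, belong to the genes with the lowest values.

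The counted part of Htr1b overlaps another gene. The ratio of the adjusted read values to the RPKM gave a counted length of 1161 bases for Htr1b, which equals the length of its coding sequence with the stop codon, and is 24.6% of the 4724 exonic bases of the GENCODE annotation. The antisense gene D430036J16Rik (chromosome 9, 81631551 to 81645156, plus strand), which was singled out because of this overlap and after its values were seen, covers 852 of the 1158 coding bases (73.6%) with its exons on the opposite strand. Its own counted length was 1855 bases, against 2234 exonic bases in the annotation, so the overlap of the counted parts is not known. D430036J16Rik held adjusted read values of 15, 20, 26 and 15 in the cKO libraries, against 69, 87, 84 and 81 in the control libraries. The groups were far apart, and the antisense gene fell by a log2 fold change of -2.05 ± 0.19 (SE, limma adjusted p = 5e-05). The Htr1b value was 3.07, 2.55, 1.69 and 2.2 times the antisense value in the cKO libraries, against 1.65, 1.11, 1.02 and 1.32 times in the controls. That ratio was higher in 4 of 4 cKO libraries than in any control (exact two-sided permutation p = 0.0286, the smallest possible). The gap was narrow, with 1.69 in cKO replicate 3 and 1.65 in control replicate 1. The antisense gene was chosen with its values known, so this p-value gives no separate support. The kit yields directional libraries, and the sources used here do not say if the counting used strand. Without strand, reads from Htr1b and from its antisense partner cannot be told apart, and the values of both genes are uncertain for that reason. The other 9 receptor genes share no exonic bases with another gene in that annotation.

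**Figure D4:**
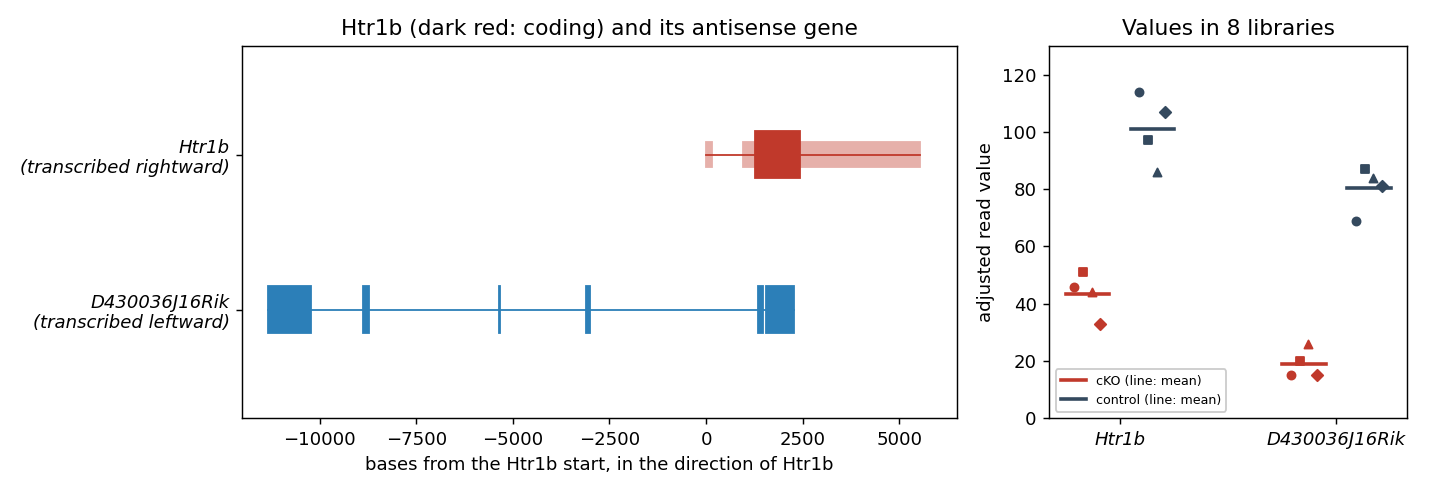
Left, exons of Htr1b and of its antisense gene D430036J16Rik by distance in bases from the Htr1b start, with the coding part of Htr1b in dark red. Right, adjusted read values of both genes in the 4 cKO and 4 control libraries, which do not overlap for either gene.

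The nearest tested genes on both sides did not pass. Myo6, an unconventional myosin gene 1320 kb away, had a log2 fold change of -0.09 ± 0.06 (limma adjusted p = 0.515), and Mei4, a meiosis gene 230 kb away with a low mean value of 26.6, of -0.33 ± 0.17 (adjusted p = 0.322). The overlapping pair fell, while neither of these flanking genes passed. Myo6 is distant and Mei4 low in value, so they cannot show how far the change extends.

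The 250 bases before the RefSeq start of Htr1b (GRCm38.p6, chr9:81633833-81634082, minus strand) lie inside the span of the antisense gene but touch none of its exons. They are shown beside those before the first RefSeq start of Htr1d (chr4:136423274-136423523, plus strand), whose product is the closest relative of the Htr1b receptor and whose value did not pass the test. Capitals mark TAAT on either strand (TAAT or ATTA), the core that homeodomain proteins bind.

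Htr1b: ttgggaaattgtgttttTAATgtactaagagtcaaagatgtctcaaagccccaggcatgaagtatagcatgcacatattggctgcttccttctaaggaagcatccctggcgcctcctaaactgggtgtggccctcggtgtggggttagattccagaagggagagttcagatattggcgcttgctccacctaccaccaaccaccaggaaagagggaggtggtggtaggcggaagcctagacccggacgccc

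Htr1d: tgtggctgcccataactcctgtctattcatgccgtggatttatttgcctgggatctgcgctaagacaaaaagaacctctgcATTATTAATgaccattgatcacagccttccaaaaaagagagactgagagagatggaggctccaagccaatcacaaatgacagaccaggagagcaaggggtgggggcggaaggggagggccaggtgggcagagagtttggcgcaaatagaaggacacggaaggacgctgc

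The Htr1b window holds 1 TAAT match, beginning at position -233 from the start. The Htr1d window shown holds 3 overlapping matches, beginning at positions -169, -166 and -164. The window before a further Htr1d start (chr4:136424362-136424611, plus strand), not shown, holds 0 TAAT matches. Among 32851 RefSeq promoter windows of this length, 54.9% hold at least 1 such match, so its presence is common. Neither of the windows shown holds the longer palindrome TAATTA, which 4.84% of the windows hold and which overlaps TAAT. They also lack the motif TATAAA on either strand, found in 12.4%.

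The 3 genes with the pattern most like that of Htr1b over the 8 libraries were Arpp21, Kcnip2 and Entpd3. Likeness was the root mean square difference in log2 value, each gene centred on its mean, among 11721 other genes with a mean value of at least 100. It was 0.1 for Arpp21, which encodes a cyclic AMP-regulated phosphoprotein abundant in striatal projection neurons, 0.128 for Kcnip2, which encodes an auxiliary subunit of Kv4 potassium channels, and 0.158 for Entpd3, which encodes an enzyme that hydrolyses extracellular nucleotides. Arpp21 averaged 2064 ± 291 in the cKO and 4626 ± 336 in the controls, and Kcnip2 averaged 143.5 ± 19 in the cKO and 342 ± 11.5 in the controls (SD, n = 4 each). These 3 genes and Htr1b share their lowest value in cKO replicate 4. They were picked for their likeness over the same 8 libraries, so this is no separate observation.

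**Figure D5:**
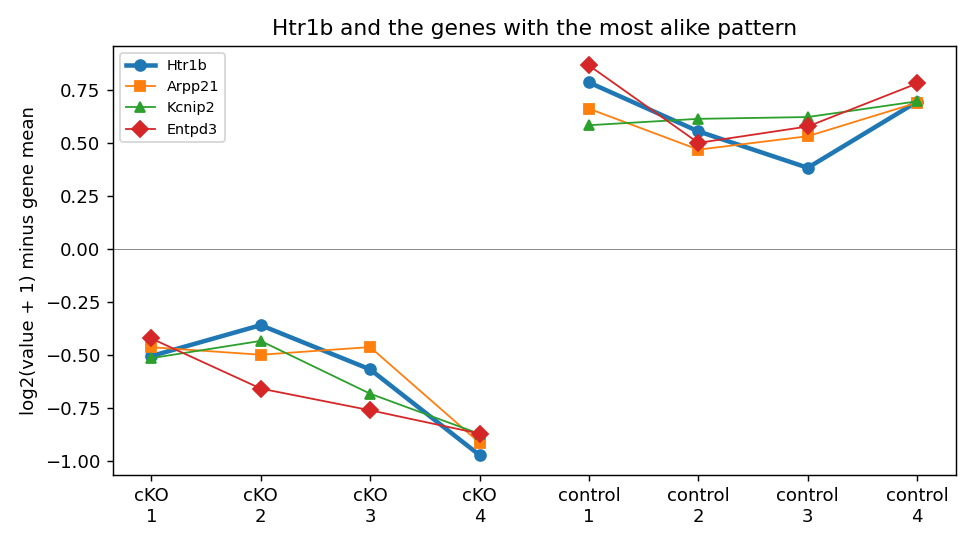
Log2(value + 1) minus the mean of the gene over the 8 libraries, for Htr1b (thick line) and the 3 genes nearest to it by this pattern. All 4 genes lie below 0 in the 4 cKO libraries, lowest in cKO replicate 4, and above 0 in the 4 control libraries.

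Markers of several striatal cell types differed between the groups in which Htr1b fell. Of 11 markers of striatonigral neurons, a cell type known to express Htr1b, 6 fell, against 3.78% of all genes tested, among them the substance P precursor gene Tac1 with a log2 fold change of -2.93 ± 0.13 (SE), and 1 rose, Isl1 itself. The summed RPKM of the 11 genes lay between 205 and 225 in the cKO and between 276 and 295 in the controls, and no marker was at 0. Drd1, the dopamine receptor gene that defines these neurons, averaged 655 ± 50.7 in the cKO and 751.5 ± 78.8 in the controls (SD, n = 4 each) and did not pass (limma adjusted p = 0.217). In bulk tissue, fewer cells of a type and less RNA per cell cannot be told apart. Of 10 cholinergic markers 7 fell and 1 rose, again Isl1, and of 10 markers of striosome and matrix 6 fell and 1 rose. Of 11 striatopallidal markers 4 rose and none fell. Over all genes tested, 2.87% rose. The marker lists were chosen with earlier results of these data known, so these counts are no test of a cell type. The part of these cell types in the fall of Htr1b was not tested.

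The other 3 Gi/o-coupled receptor genes did not pass. Htr1a, the somatodendritic autoreceptor of raphe neurons and a receptor of limbic and cortical neurons, held values of 26, 50, 32 and 39 in the cKO, against 38, 77, 58 and 47 in the controls. The groups overlapped. Its log2 fold change was -0.56 ± 0.24, with a 95% interval from -1.10 to -0.02 and an unadjusted p of 0.0418 that became 0.242 after adjustment in limma. Htr1d, which like Htr1b is known as a receptor of axon terminals, held 47, 40, 30 and 35 in the cKO and 39, 40, 30 and 42 in the controls. The groups overlapped over nearly their whole range, at 38 ± 7.26 in the cKO and 37.8 ± 5.32 in the controls (SD, n = 4 each), and the 95% interval of the fold ran from 0.76 to 1.32. The interval of Htr1d thus left out the 43.1% level seen for Htr1b, but the difference between the genes was not tested. Htr1f, the receptor bound by the migraine drug lasmiditan, held only 3, 7, 4 and 1 in the cKO and 3, 10, 7 and 8 in the controls. With a 95% interval of the fold from 0.274 to 1.16, its values were too low to tell a fall like that of Htr1b from none.

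Of the Gq-coupled genes, Htr2a, the receptor through which classical hallucinogens act, held values of 36, 34, 23 and 35 in the cKO, against 14, 28, 23 and 23 in the controls. Of the cKO libraries 3 lay above every control, and cKO replicate 3 did not. The log2 fold change was 0.54 ± 0.24 (SE), with a 95% interval from 0.02 to 1.06, an unadjusted p of 0.0432 and a limma adjusted p of 0.247. Without control replicate 1, the lowest library, it was 0.35 (adjusted p = 0.408). Htr2c, whose transcript is edited by adenosine deaminases in the brain, held 197, 175, 197 and 172 in the cKO and 161, 173, 125 and 175 in the controls. The lowest value belonged to control replicate 3, and the groups overlapped at their edges. Its log2 fold change was 0.23 ± 0.12 (SE, limma adjusted p = 0.313), with a 95% interval of the fold from 0.987 to 1.4. Without control replicate 3 it was 0.12 (adjusted p = 0.535).

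Htr2c is X-linked and abundant in the choroid plexus, and neither sex nor plexus tissue was balanced between the libraries. The plexus marker Ttr, a thyroid hormone carrier, held 39, 70, 41 and 17 in the cKO and 3462, 23, 141 and 117 in the controls, so control replicate 1 stood apart. The summed RPKM of 10 choroid plexus and ependymal markers was 133 in that library, between 12.6 and 15.2 in the cKO and between 11 and 16.5 in the other controls. This sum includes Ttr, so it is not separate from the Ttr value. Kcne2 (21), Folr1 (16), Clic6 (108) and Otx2 (125) were also highest in that library, Otx2 only slightly. Kl (24), Prlr (4), Steap1 (2), Aqp1 (28) and Foxj1 (531) lay there within the range of the other libraries. Htr2c held 161 in that library and 173, 125 and 175 in the other controls. The part of plexus tissue and of sex in the Htr2c values was not tested. Of these 10 markers none passed in limma, 4 had an unadjusted p under 0.05, and 2 had an adjusted p under 0.05 in the authors' deposited table. No marker had a mean of 0.

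The channel gene Htr3a varied more between libraries than any other receptor of its level. It held values of 116, 161, 216 and 117 in the cKO, against 139, 153, 281 and 162 in the controls. The third replicate was the highest in both groups. The groups overlapped in part, with 2 cKO libraries below every control and control replicate 3 above every cKO library. The means were 152.5 ± 47.2 in the cKO and 184 ± 65.5 in the controls (SD, n = 4 each), while Htr2c, at similar values, had SDs of 13.6 in the cKO and 23.2 in the controls. The log2 fold change of Htr3a was -0.26 ± 0.24 (SE, limma adjusted p = 0.629), and it became 0.08 without control replicate 3 and cKO replicate 4. Of 11 other markers of interneurons from the caudal ganglionic eminence, 2 rose and 1 fell, against 2.87% and 3.78% of all genes tested. The fall was of the extracellular glycoprotein gene Reln, at a log2 fold change of -1.34 ± 0.12 (SE). The rises were of Adarb2 at 0.84 ± 0.06 and of the cannabinoid receptor gene Cnr1 at 0.40 ± 0.05 (SE). In bulk tissue, changes of these genes in the interneurons and in other neurons cannot be told apart. The summed RPKM of the list lay between 85 and 89.4 in the cKO and between 81 and 89 in the controls. It was lowest among the controls in control replicate 3 and highest among the cKO in cKO replicate 3, the libraries with the most Htr3a in each group.

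Among the Gs-coupled genes, Htr6, a receptor of striatal projection neurons and a resident of neuronal primary cilia, held 26, 17, 16 and 15 in the cKO and 21, 20, 13 and 24 in the controls. Its log2 fold change was -0.07 ± 0.25 (SE, limma adjusted p = 0.921), with a 95% interval of the fold from 0.65 to 1.39. Htr7, known from thalamus, hypothalamus and cortex, held 52, 67, 57 and 80 in the cKO and 64, 84, 50 and 59 in the controls, and its 95% interval of the fold ran from 0.757 to 1.32. For both genes the values of the groups were interleaved. Htr4, a receptor of striatal projection neurons in adults, held 5, 12, 3 and 16 in the cKO and 7, 6, 6 and 3 in the controls. Of its cKO values 2 lay above every control and 1 equalled the lowest, and the interval of the fold, from 0.67 to 2.75, was too wide to tell a doubling from no change. The sign of the small differences in Htr1d and Htr7 turned under other scalings of the libraries.

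A further receptor gene, Htr5a, is also in the table and enters none of the counts. Htr2b, Htr3b and Htr5b were not analysed here.

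The genes that make, carry and break down serotonin did not pass the test. None of 11 genes of synthesis, transport and breakdown had an adjusted p under 0.05 in limma or in the authors' deposited table, and 1 had an unadjusted p under 0.05. That gene was Tph1, the peripheral tryptophan hydroxylase, at 5.5 ± 1.73 in the cKO and 2.5 ± 1.73 in the controls (adjusted p = 0.223). The serotonin transporter gene Slc6a4, at 3 ± 1.83 in the cKO and 1.75 ± 0.5 in the controls, and the neuronal tryptophan hydroxylase gene Tph2, at 11.8 ± 2.22 in the cKO and 14.2 ± 3.77 in the controls, were near the floor of the table (SD, n = 4 each). The cell bodies of serotonin neurons lie outside the dissected tissue. Monoamine oxidase A (Maoa) averaged 1020 ± 75 in the cKO and 984.5 ± 90 in the controls, and the vesicular monoamine transporter gene Slc18a2 averaged 1558 ± 78.7 in the cKO and 1479 ± 219 in the controls (SD, n = 4 each), with log2 fold changes of 0.05 ± 0.07 and 0.09 ± 0.09 (SE).

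Over the 5 pathway lists, those 11 genes included, 15 of 72 genes passed, 9 lower and 6 higher, or 20.8% against 6.66% of all genes tested. The lists were chosen with earlier results of these data known, so this share is no test of the pathway. It was not compared with the share among genes of like level. All 15 belong to the 4 lists of G protein signalling and receptor adaptors. Of 14 genes for Gi/o proteins, their potassium channels and their regulators, 3 rose and 1 fell (28.6%). The channel subunit gene Kcnj5 averaged 81 ± 7.17 in the cKO and 16 ± 0.816 in the controls (log2 fold change 2.27 ± 0.14), and Gnai1, an inhibitory G protein alpha subunit gene, averaged 2720 ± 99.5 in the cKO and 1968 ± 101 in the controls (0.47 ± 0.04). Rgs4, a regulator that shortens Gi/o and Gq signals, averaged 785.5 ± 92.4 in the cKO and 2101 ± 268 in the controls, and fell by a log2 fold change of -1.42 ± 0.10. Rgs8, a further such regulator, rose by 0.22 ± 0.05 (limma adjusted p = 0.0313). Leaving out single libraries ended the Rgs8 call in 6 of 8 cases, as did leaving out control replicate 3 and cKO replicate 4 (adjusted p = 0.187).

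Of 16 genes for Gs proteins, adenylyl cyclases and protein kinase A, 5 fell and 2 rose. This is 43.8%, against 6.66% of all genes tested. The rises were of the cyclase gene Adcy8, at 68.5 ± 19.5 in the cKO and 35.8 ± 7.8 in the controls (limma adjusted p = 0.0258), and of the regulatory subunit gene Prkar1a, whose log2 fold change was 0.13 ± 0.03 (SE, adjusted p = 0.0309). Omitting 1 library took away the Adcy8 call in 5 of 8 cases and the Prkar1a call in 6 of 8, and neither passed without both control replicate 3 and cKO replicate 4 (adjusted p = 0.13 and 0.132). In the authors' deposited table Prkar1a had an adjusted p of 0.262. The regulatory subunit gene Prkar2b averaged 5620 ± 66.2 in the cKO and 6806 ± 174 in the controls (log2 fold change -0.28 ± 0.03). The cyclase genes Adcy1 and Adcy9 fell by log2 fold changes of -0.44 ± 0.06 and -0.39 ± 0.06. The G protein alpha subunit gene Gnal averaged 9236 ± 704 in the cKO and 11470 ± 452 in the controls (-0.32 ± 0.05). Ppp1r1b, which encodes the striatal phosphoprotein DARPP-32, averaged 1209 ± 216 in the cKO and 2000 ± 126 in the controls (-0.74 ± 0.11). Of 12 genes for Gq proteins and phospholipase signalling, the kinase gene Prkca alone passed (8.33%, near the 6.66% of all genes tested). Prkca averaged 2287 ± 172 in the cKO and 2816 ± 282 in the controls, with a limma adjusted p of 0.0304. Leaving out single libraries ended the Prkca call in 5 of 8 cases, as did leaving out control replicate 3 and cKO replicate 4 (adjusted p = 0.171).

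Of 19 receptor adaptors and RNA-editing genes, 2 fell and 1 rose (15.8%, against 6.66% of all genes tested). The receptor kinase gene Grk5 averaged 372 ± 27.4 in the cKO and 625 ± 35.4 in the controls, and the scaffold gene Cnksr2 averaged 860.5 ± 25.1 in the cKO and 1024 ± 19.2 in the controls (SD, n = 4 each). Adarb2, a deaminase relative with no known editing activity, rose, at 2268 ± 145.5 in the cKO and 1268 ± 82.2 in the controls. Adar and Adarb1, whose products edit the Htr2c transcript, had log2 fold changes of -0.02 ± 0.04 and -0.11 ± 0.08 (SE) and did not pass. S100a10, whose product p11 binds the Htr1b and Htr4 receptors, was named after its values were seen, and held 272, 232, 385 and 863 in the cKO, against 1279, 1085, 292 and 659 in the controls. Of the controls 2 lay above every cKO library, and the difference did not pass (log2 fold change -0.92 ± 0.47, limma adjusted p = 0.331). The libraries low in pallial markers were the highest of the cKO and the lowest of the controls in S100a10.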

How the data were processed

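Poly(A) RNA of 8 dissected LGEs was sequenced as single reads of 85 bp from directional libraries, per the labels' protocols. STAR, featureCounts and edgeR were run by the authors on mm10, per the submitters' processing notes, and without stated versions or counting options. The deposited columns named raw hold a score, since they are whole numbers with upper quartiles between 1624 and 1635 in all libraries. In the natural log of values with a mean above 1000 (5711 genes), 1 direction had a singular value of 0.000241, against 0.0433 for the next. No source used here records the step that left this gap. If a factor was removed, the spread within groups was lowered, and SEs and permutation p-values may be too small. The authors' deposited RPKM are these values over gene length and library sum, per the file headers and values. The authors' deposited log2 fold changes and p-values served as an alternative, and their sign is cKO over control. With no counts, depth and counting intervals are unknown.

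Groups were compared on log2(value + 1) with limma 3.58.1 (mean trend) in R 4.3.3 and data.table (version 1.17.8), over 15698 genes (those reaching 1 in 4 or more libraries). The p-values were adjusted over all of them (Benjamini-Hochberg, threshold 0.05). Fold changes on this scale understate the change of low genes. The code was first tested on simulated data. Exact permutation tests enumerated 70 assignments, two-sided. Named genes were the 10 receptors, at most 4 genes that passed per pathway list (with Gnal, Adcy8 and Prkar1a added after their values were seen), the 3 most alike in pattern, and others named with their reason. A further set of pathway genes (Tph2, Slc6a4, Maoa, Slc18a2, Tph1, Adar and Adarb1) and the marker genes were named for their role with the values known. The members and lists were chosen with earlier results of these data known. Symbols of GENCODE M21 (GRCm38, which mm10 denotes) gave coordinates, and sequences are from RefSeq GRCm38.p6.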

Additional observations from a re-analysis of the deposited data

Results flagged for a closer look

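Of the 20 sets of 4 values (10 receptor genes in each group), 2 held a library far from the others, where chance gives about 1 in 20. Htr2a held 23 in cKO replicate 3, below the 34 to 36 of the other cKO libraries. Without that library the log2 fold change of Htr2a was 0.69 (limma adjusted p = 0.139), and over all 8 omissions of 1 library it lay between 0.35 and 0.69. Htr3a held 281 in control replicate 3, above the 139 to 162 of the other controls. Without that library the log2 fold change of Htr3a was -0.03 (limma adjusted p = 0.956).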

How the results depend on the processing

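Htr1b was the only receptor to pass under each of the 20 alternatives, with log2 fold changes from -1.29 to -1.06 and limma adjusted p up to 0.00384 (authors' deposited table: -1.19, adjusted p = 1.36e-12). A filter of at least 50 in 4 or more libraries left 4 receptors (Htr1b, Htr2c, Htr3a and Htr7). Over all genes, 1045 passed, 608 without control replicate 3 and cKO replicate 4, 749 with the missing direction as a covariate, and 658 to 959 when 1 library was left out, the lowest without control replicate 4. Listed pathway genes that passed numbered 11 to 17. Differences near 0 changed sign, and the cause was not tested. Htr7, at 0.00053, became -0.00013 with a pseudocount of 10, -0.0071 with RPKM, -0.0047 with median-of-ratios scaling, -0.0058 with trimmed-mean scaling, -0.039 in the authors' deposited table and -0.22 without control replicate 3 and cKO replicate 4. Htr1d, at 0.0017, became -0.0044 with RPKM, -0.0035 with median-of-ratios scaling, -0.0046 with trimmed-mean scaling and -0.07 without those 2 libraries. Htr6 became 0.039 in the authors' deposited table, and Htr3a 0.076 without those 2 libraries. With 1 library left out, Htr1a ranged from -0.72 to -0.39, Htr1f from -1.13 to -0.47, Htr2a from 0.35 to 0.69, Htr2c from 0.12 to 0.28, Htr4 from 0.11 to 0.80, Htr1d from -0.10 to 0.11, Htr3a from -0.44 to -0.03, Htr6 from -0.25 to 0.033 and Htr7 from -0.11 to 0.14. The same replicate numbers did not pair the libraries, with correlations of 0.23, -0.027, -0.11 and -0.53 for numbers 1 to 4, and not every library correlated best with its own number. With the replicate block, 1199 genes, 17 pathway genes and 1 receptor passed. Low values limit Htr1f and Htr4, whose intervals are the widest.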

Other observations

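The genes nearest in pattern to Htr3a were looked up after its values were seen, by the same measure. They were Hist1h2bc, a histone gene, at 0.167, Zfp994, a zinc finger gene, at 0.196, and H2-DMa, an antigen presentation gene, at 0.208. Hist1h2bc held 99, 131, 143 and 105 in the cKO, against 113, 123, 176 and 121 in the controls. It was highest in the third replicate of both groups as Htr3a was, which its choice by pattern favours. None of the 3 passed the comparison of the groups (limma adjusted p between 0.596 and 0.78).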
